A study of Homo sapiens with 20 samples.

Results

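The genes described here are 47 genes of DNA replication and nucleotide synthesis, read in RNA-seq counts of 20 libraries from the human lymphoma cell lines DOHH2 and U2932. They were chosen by symbol from the 58288 genes of each library. Both lines are labelled as diffuse large B cell lymphoma (DLBCL) lines, and both were given either a compound labelled TK or DMSO, the solvent that serves as its control. DOHH2 had 3 libraries of DMSO at 8 h, 3 of TK at 8 h, 2 of DMSO at 18 h and 3 of TK at 18 h. U2932 had 3 of DMSO at 8 h, 2 of TK at 8 h, 1 of DMSO at 18 h and 3 of TK at 18 h. The labels give no dose and do not say what TK stands for. The compound is a different thing from the gene TK1, which encodes thymidine kinase 1 and is 1 of the members. Each line is a single established line, and the labels do not say that replicates were separate cultures, so p-values measure the spread between these libraries, which may be technical.

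A cell prepares each replication origin in G1, when the origin recognition complex (ORC) with CDC6 and CDT1 loads rings of MCM proteins, the replicative helicase, onto DNA. At the start of S phase CDC45 and the GINS complex switch the helicase on, polymerases copy both strands behind it, the clamp PCNA and its loader RFC hold them to the template, and ribonucleotide reductase, thymidylate synthase and thymidine kinase 1 supply the nucleotides. Many of these genes are known targets of E2F transcription factors, whose activity rises as cells leave G1, so their summed level is often read as a sign of how many cells are cycling. In bulk libraries, fewer cells expressing a gene and less of its RNA per cell cannot be told apart.

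Libraries held 30363255 to 52275430 counts in genes (median 34671988), of which the members took 0.544 to 1.03%. The lowest count of any member in any library was 394 and the highest 48278, so no member's level rests on few counts. DOHH2 TK 18 h replicate 1 stood apart: 56.6% of its counts lacked a unique alignment, where the other 19 libraries had 20.7 to 34.3%. It also held the highest level of its group for 22 members and the lowest for 22, and its weight in the members' counts is given beside each contrast that uses it. Of 7 B cell markers listed, 6 were in the files, and their summed level was 806 to 1481 CPM (counts per 1000000 counts in genes, with library sizes scaled) for DOHH2 libraries, compared with 2352 to 3010 for U2932 libraries. DOHH2 is usually classed as germinal centre B cell-like and U2932 as activated B cell-like, but here the summed level of germinal centre markers was lower in DOHH2 (171 to 276 CPM) than in U2932 (639 to 725 CPM), while that of activated B cell markers was higher in DOHH2 (1000 to 1383 against 593 to 754 CPM). BCL6, which defines the germinal centre state, had a median of 0.0597 CPM in DOHH2, with no count in 3 of 11 libraries, and 384 CPM in U2932. Single markers were split. LMO2, MYBL1 and SERPINA9 were also lower and IRF4, CCND2 and ENTPD1 higher in DOHH2, against the usual classes. MME leaned the same way (median 27.5 against 44.2 CPM), with overlapping ranges. As the classes have it, GCSAM was higher in DOHH2 (median 170 against 50.2 CPM). FOXP1 (6.78 against 44.7 CPM) and PIM1 (39.9 against 116 CPM) were lower, also as the classes have it. BLNK was similar in both lines (112 against 122 CPM). The lines are called here by their labels alone, and every direction between lines is that of the libraries as labelled. T cell markers summed to at most 0.671 CPM for DOHH2 and 1.70 for U2932, myeloid markers to at most 0.951 and 2.37 CPM. Epithelial markers summed to 21.2 to 32.5 CPM in U2932, nearly all of it EPCAM, and to at most 0.579 CPM in DOHH2, and fibroblast markers to 5.06 to 30.8 CPM in DOHH2, mostly COL1A1, and 0.834 to 4.77 CPM in U2932. The part of these markers in the differences between lines was not tested.

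All 47 members were above the minimum level for testing. Divided by exon length, levels in DMSO at 8 h ran from 2.51 CPM per kb for ORC4 to 244 CPM per kb for PCNA in DOHH2, and from 1.88 for ORC4 to 342 for PCNA in U2932. MCM7 and MCM3, subunits of the helicase ring, and FEN1, the nuclease that trims Okazaki fragments, were the next most abundant per length in both lines, MCM7 at 207 CPM per kb in DOHH2 and 135 in U2932, MCM3 at 125 and 144, and FEN1 at 84.1 and 111. Of 6 members whose exons overlapped other genes over more than 20% of their length, TYMS, thymidylate synthase, had the largest share, 46.6%. The strand setting of the counting is not given, so reads of genes on the opposite strand, as at TYMS, could not be told apart. In POLA2 (35.1%) and RRM2 (20.2%) all the overlap lay on the same strand. So did most of it in PRIM1 (21.6%, with 5.4% on the opposite strand). A strand setting does not separate reads of genes on the same strand.

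Promoters from RefSeq (GRCh38.p14; 250 bases before to 50 after the start) were found for 41 of 47 members. The letters of an E2F site, TTTCGCGC or TTTGGCGC on either strand, stood in the promoters of 13 of the 41, or 31.7%, against 1.4% of 27305 genes and 1.99% of 15843 protein-coding genes. Matches on opposite strands can overlap, as in TTTCGCGCGAAA. The 13 genes were CDC6, DNMT1, GINS1, GMNN, MCM2, MCM3, MCM6, MCM7, POLA1, POLA2, POLE, POLE2 and UHRF1. The CCAAT box (CCAAT, either strand) stood in 61% of the members' promoters against 39.7% of all genes', and the letters TTTGAA or TTCGAA of the CHR element in 4.88% against 19.5%. A match of letters is a description and not a bound site. UHRF1 and GINS1 are shown because they were among the 3 members with the smallest p for TK in DOHH2 at 18 h, and MCM2 and MCM6 because they hold overlapping matches, which was seen only after the search. The stretches run from 170 bases before to 20 after the start, 5′ to 3′ on the gene's strand, with the E2F letters in capitals: UHRF1 at chr19:4909974-4910163 (plus strand, 1 of 3 annotated promoters), GINS1 at chr20:25407503-25407692 (plus), MCM2 at chr3:127598241-127598430 (plus) and MCM6 at chr2:135876424-135876613 (minus).
UHRF1: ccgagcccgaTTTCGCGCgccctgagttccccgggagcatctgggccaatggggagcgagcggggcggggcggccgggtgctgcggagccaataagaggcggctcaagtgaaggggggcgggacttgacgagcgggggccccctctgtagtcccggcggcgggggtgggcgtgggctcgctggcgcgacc
GINS1: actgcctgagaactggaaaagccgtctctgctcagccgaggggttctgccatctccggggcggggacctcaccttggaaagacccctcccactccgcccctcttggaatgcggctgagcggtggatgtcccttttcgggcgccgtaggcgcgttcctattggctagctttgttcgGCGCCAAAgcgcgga
MCM2: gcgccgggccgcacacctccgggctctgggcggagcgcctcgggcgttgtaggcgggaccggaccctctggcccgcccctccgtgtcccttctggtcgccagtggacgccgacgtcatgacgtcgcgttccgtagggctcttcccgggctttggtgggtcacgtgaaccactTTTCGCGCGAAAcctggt
MCM6: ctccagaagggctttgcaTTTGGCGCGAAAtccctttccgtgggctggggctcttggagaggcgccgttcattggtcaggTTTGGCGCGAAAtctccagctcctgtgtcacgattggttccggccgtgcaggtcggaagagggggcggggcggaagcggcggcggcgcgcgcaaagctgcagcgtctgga
The UHRF1 match lies on the printed strand far from the start and the GINS1 match on the opposite strand close to it, while the MCM6 promoter holds separate pairs of matches.

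With TK at 18 h in DOHH2, 45 of the 47 members had a lower fitted level than with DMSO, but none passed the test. The median log2 change was -0.30, against 0.02 over all 16478 genes tested, and the members ranged from -0.61 (UHRF1) to 0.01 (ORC2). Of all genes, 45.9% had a negative change. In edgeR's quasi-likelihood test, adjusted over all genes by Benjamini-Hochberg, 0 members and 0.0728% of all genes were called. DESeq2 called 0 members too, beside 0.516% of all genes. At an unadjusted p under 0.05, 13 members were lower and 0 higher, where 4.07% of all genes were lower and 4.5% higher. In 30 members every TK library lay below both DMSO libraries, which held for 13.2% of all genes. Replicate 1 of TK at 18 h sat apart within its group, and without it 2 members were called, UHRF1 at -0.84 (adjusted p = 0.00386) and DNMT1 at -0.48 (adjusted p = 0.0441), beside 0.11% of all genes, with 40 members negative and a median of -0.35. At an unadjusted p under 0.05, 21 members were then lower. Leaving out any other library of the contrast lowered that count: to 3 and 5 when DMSO replicate 1 or 3 was dropped, and to 6 and 8 when TK replicate 2 or 3 was. For fits other than the main one, the share of all genes at an unadjusted p under 0.05 was not computed, here or below. The comparison rests on only 2 DMSO libraries. In the main edgeR fit with all libraries, no member of either sign had an adjusted p below 0.241. With no filter on low counts, edgeR called CDC45, TK1 and UHRF1, beside 0.498% of all genes. Against DMSO of 8 h and 18 h pooled, 39 members were negative, the median was -0.11 and 4 members were lower at an unadjusted p under 0.05.

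UHRF1, which recognises hemimethylated DNA behind the fork and recruits DNMT1, had the smallest p. It lies at chr19:4903080-4962154 (GRCh38). Its level was 133 and 128 CPM in the DOHH2 DMSO libraries at 18 h and 111, 71.4 and 74.7 CPM in the TK libraries. The groups did not overlap, although TK replicate 1 lay much nearer to DMSO than the other TK libraries. The log2 change was -0.61 (SE 0.16, edgeR adjusted p = 0.241). DNMT1, the maintenance DNA methyltransferase, stood at 401 and 422 CPM with DMSO and at 426, 296 and 292 CPM with TK. Here replicate 1 alone was above the DMSO libraries, and the log2 change over all 3 was -0.28 (SE 0.13).

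In the helicase ring all 6 MCM genes had negative changes, with a median of -0.28, and MCM4 the most negative at -0.46 (SE 0.13, edgeR adjusted p = 0.264). MCM4 read 559.8 and 557 CPM with DMSO and 427, 386 and 401 CPM with TK, so every TK library lay well below both controls, replicate 1 included. MCM2, MCM3, MCM5 and MCM7 behaved otherwise in replicate 1. MCM2 read 421 and 376 CPM with DMSO and 459, 247 and 265 CPM with TK. MCM5 read 423 and 381 CPM with DMSO and 417, 247 and 251 CPM with TK. In both, replicates 2 and 3 were far below the controls while replicate 1 was within or above their range.

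The activators of the helicase lay below the DMSO libraries in every TK library for all 6 members, with a median of -0.38. CDC45, which rides with the moving helicase, read 102 and 107 CPM with DMSO and 77.9, 64.1 and 64.9 CPM with TK, a log2 change of -0.60 (SE 0.25). GINS1 read 58.0 and 56.3 CPM with DMSO and 32.2, 42.9 and 44.1 CPM with TK, a log2 change of -0.53 (SE 0.17, edgeR adjusted p = 0.339). In GINS1 it was replicate 1 that lay lowest. GINS4 read 39.0 and 39.5 CPM with DMSO and 29.3, 29.6 and 29.3 CPM with TK, a log2 change of -0.42, with little spread within either group. GINS2, GINS3 and MCM10, which helps to open the ring, had changes of -0.34, -0.25 and -0.19.

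The origin and licensing genes were more mixed. ORC6, the smallest ORC subunit, read 73.7 and 72.1 CPM with DMSO and 57.2, 55.7 and 56.6 CPM with TK, a log2 change of -0.37 (SE 0.13), with tight and separate groups. ORC2 and RFC1 were the only members with a positive change, both 0.01. Over the 6 ORC genes the median was -0.14. ORC5 read 64.4 and 55.3 CPM with DMSO and 29.4, 62.7 and 62.0 CPM with TK, and here the single low library was replicate 1. CDT1, which brings MCM rings to ORC, read 119.5 and 119 CPM with DMSO and 107, 75.7 and 78.1 CPM with TK, a log2 change of -0.46 (SE 0.18). CDC6, its partner in loading, stood at -0.26, and GMNN, geminin, the inhibitor of CDT1, at -0.08.

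At the fork itself, 5 of the 6 clamp and clamp loader genes and all 9 polymerase genes were negative, with medians of -0.33 and -0.31. PCNA read 389 and 377 CPM with DMSO and 210.2, 321 and 327 CPM with TK, a log2 change of -0.42 (SE 0.19), and replicate 1 was again the lowest. PRIM1, the catalytic subunit of primase, read 35.7 and 29.7 CPM with DMSO and 20.3, 24.3 and 24.4 CPM with TK, a log2 change of -0.51. POLD1, the catalytic subunit of polymerase delta, read 209 and 202 CPM with DMSO and 190.5, 134 and 139 CPM with TK, a log2 change of -0.41. All groups in these 3 genes were separate. FEN1 and LIG1, which process and seal Okazaki fragments, had a median of -0.21 with overlapping groups, and the RPA genes, whose products coat single-stranded DNA, had a median of -0.09.

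The 4 nucleotide synthesis genes all lay below DMSO in every TK library, with a median of -0.33. TK1 read 128 and 111 CPM with DMSO and 98.02, 69.9 and 74.6 CPM with TK, a log2 change of -0.56 (SE 0.27). RRM1, the large subunit of ribonucleotide reductase, read 269.5 and 282 CPM with DMSO and 208, 211 and 229 CPM with TK. RRM2, its small subunit, read 362 and 297 CPM with DMSO and 242, 286 and 276 CPM with TK, the highest TK library close to the lower control. TYMS read 258 and 256 CPM with DMSO and 199, 214 and 215 CPM with TK.

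**Figure D1:**
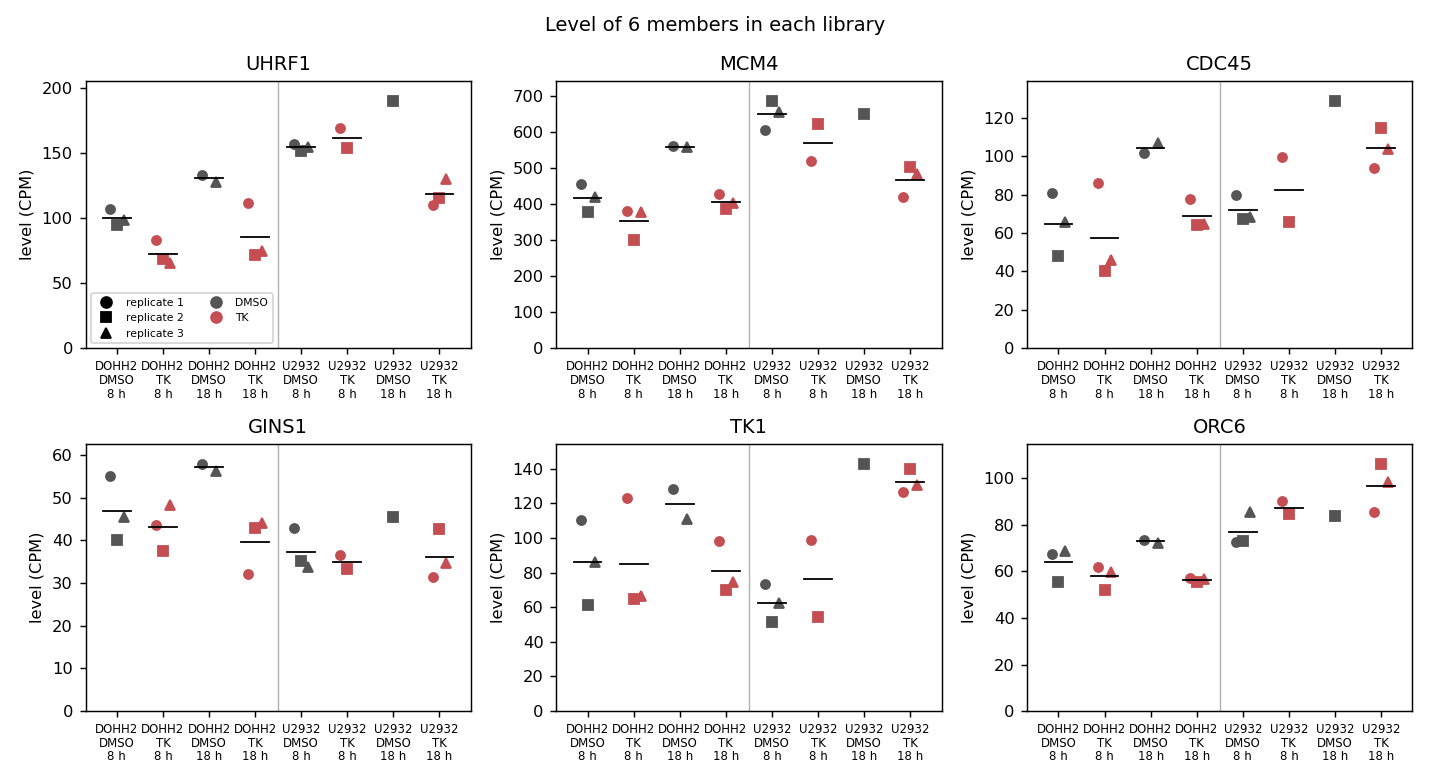
Level of 6 members in each library in CPM (y axis, from 0), by group of line, treatment and time (x axis); symbols give the replicate number, colours the treatment, and short lines the mean of groups with more than 1 library. UHRF1 and MCM4 with TK at 18 h lie below the DMSO libraries of 18 h in both lines, while ORC6 with TK lies below DMSO in DOHH2 and above it in U2932.

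In U2932 at 18 h the TK libraries were set against a single DMSO library, whose variation was taken to be like that of the other groups. Here 37 of the 47 members were negative, with a median of -0.23 against 0.00 over all genes, of which 50.2% were negative. No member passed edgeR's test, beside 0.0182% of all genes, and DESeq2 called 0, beside 0.364%. At an unadjusted p under 0.05, 7 members were lower, with 4.64% of all genes: MCM4, CDC6, CDT1, POLA1, POLD3, POLE and UHRF1. That count was 2, 5 and 4 without TK 18 h replicate 1, 2 and 3 in turn. All TK libraries lay below the DMSO library for 32 members and above it for 7, against 32.7% and 31.2% of all genes. Against DMSO of 8 h and 18 h pooled, the median was 0.09 in place of -0.23, 27 members were positive, and MCM4 alone was called (log2 change -0.47, adjusted p = 0.0311), beside 9.7% of all genes.

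UHRF1 read 190.2 CPM in the U2932 DMSO library at 18 h and 111, 115 and 130.2 CPM with TK, a log2 change of -0.68 (SE 0.19, edgeR adjusted p = 0.381). Its TK libraries were also below the 157, 152 and 155 CPM of DMSO at 8 h. MCM4 read 648 CPM with DMSO and 419, 501 and 483 CPM with TK, a log2 change of -0.47 (SE 0.16, edgeR adjusted p = 0.52), and DMSO at 8 h, at 605, 686 and 656 CPM, was again higher than every TK library. POLE, the catalytic subunit of polymerase epsilon, read 209.7 CPM with DMSO and 159, 157 and 165 CPM with TK, a log2 change of -0.39 (SE 0.17, edgeR adjusted p = 0.627). Its DMSO libraries at 8 h, at 178, 175 and 159 CPM, overlapped the TK libraries. CDT1 read 92.4 CPM with DMSO and 57.6, 70.4 and 64.5 CPM with TK, and DMSO at 8 h, at 52.5, 55.6 and 68.7 CPM, lay in the same range as TK.

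By role, all 6 MCM genes were negative in U2932 at 18 h (median -0.34), as were 8 of 9 polymerase genes (-0.34), the 4 nucleotide synthesis genes (-0.26) and both methylation genes (-0.48). The ORC genes were not: 4 of 6 were positive, ORC3 at 0.20, ORC4 at 0.15, ORC5 at 0.26 and ORC6 at 0.20, and the RPA genes had a median of 0.16. Across the lines, which have different control libraries, 36 members were negative at 18 h in both, beside 25.2% of all genes. That is 80.0% of the members negative in DOHH2, where 78.7% of all members were negative in U2932, and 97.3% of those negative in U2932, where 95.7% of all members were negative in DOHH2.

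**Figure D2:**
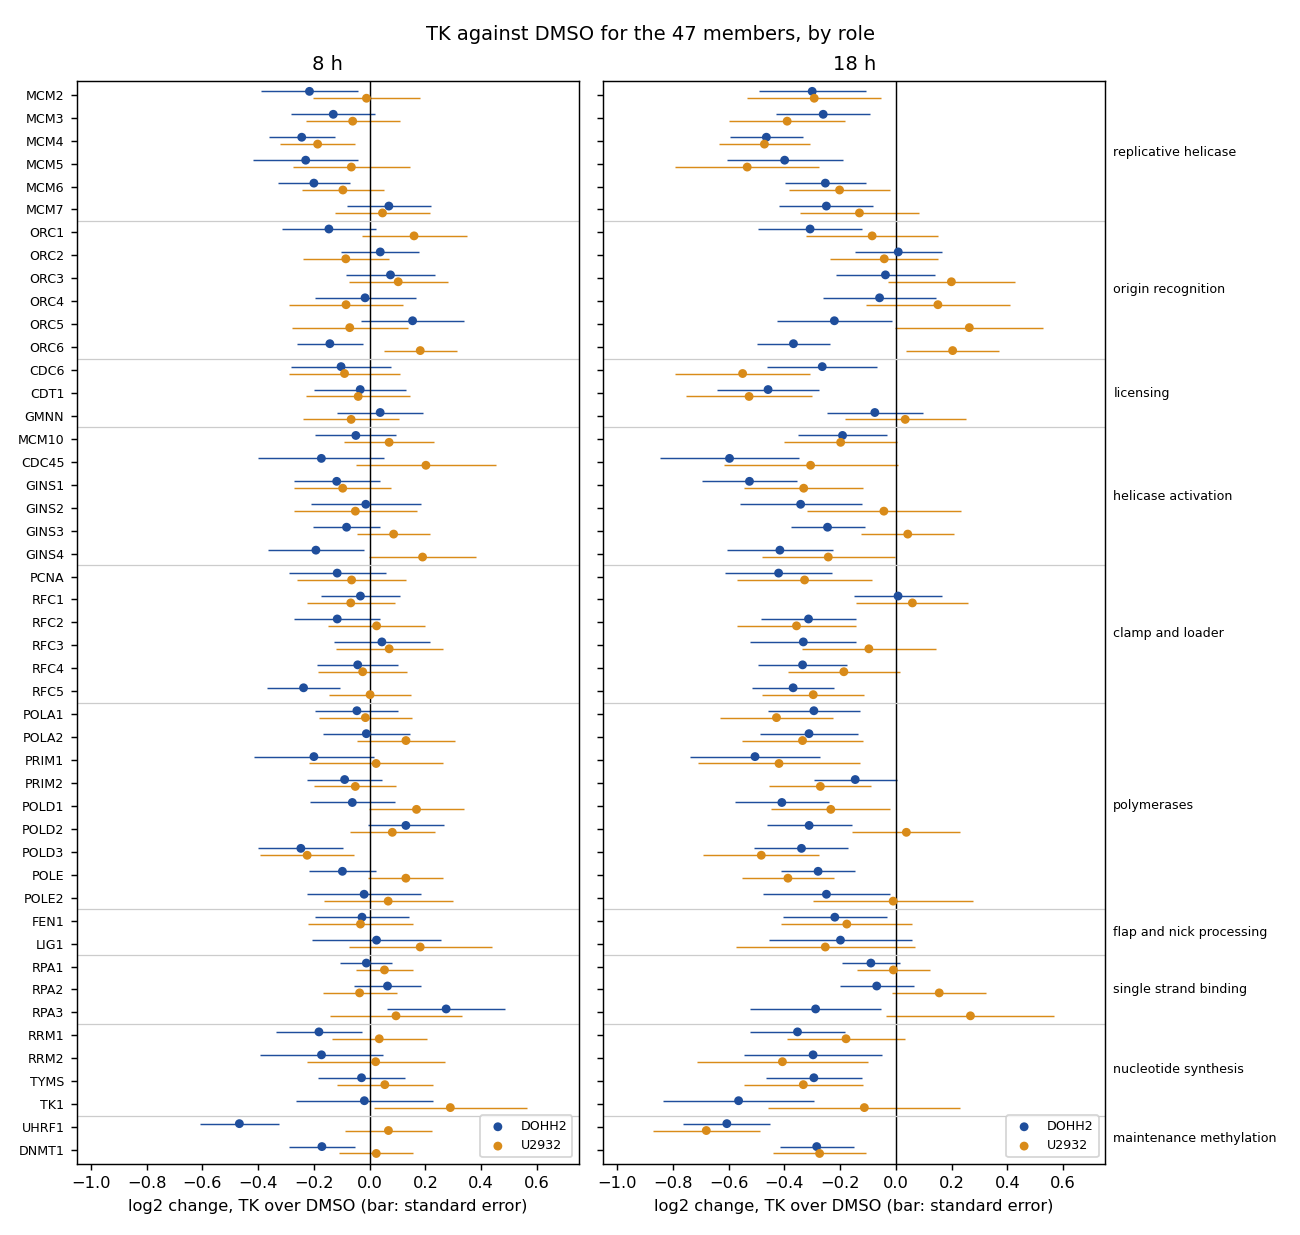
Log2 change of TK over DMSO (x axis) with its standard error as bars for each of the 47 members (y axis, in role order), in DOHH2 and U2932, at 8 h (left) and 18 h (right). At 8 h the points gather around 0 (medians -0.06 and 0.02), and at 18 h most lie to its left (medians -0.30 and -0.23).

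At 8 h the members' median change between TK and DMSO was small with all libraries. In DOHH2, 37 of 47 were negative, but the median was only -0.06, against 0.01 over all genes, of which 46.2% were negative. EdgeR's test and DESeq2 each called 0 members and 0% of all genes. Only UHRF1 was lower at an unadjusted edgeR p under 0.05, with 1.66% of all genes. UHRF1 read 107, 94.5 and 98.4 CPM with DMSO and 83.0, 68.6 and 65.4 CPM with TK, a log2 change of -0.47 (SE 0.14, edgeR adjusted p = 1). All its TK libraries lay below all DMSO libraries, which was so for only 1 other member, DNMT1, and for 2.85% of all genes. DNMT1 read 332, 309.6 and 323 CPM with DMSO and 293, 281 and 283 CPM with TK, a log2 change of -0.17. MCM4 read 456, 377 and 420.4 CPM with DMSO and 381, 300.1 and 377 CPM with TK, with groups that just overlapped, a log2 change of -0.24 (SE 0.12, edgeR adjusted p = 1). RFC5, a clamp loader subunit, had the next smallest p, at -0.24 (SE 0.13). The median turned to 0.09 without DMSO replicate 1, with 31 members positive, and to 0.03 without TK replicate 2, with 24 positive. It moved the other way, to -0.21 without TK replicate 1 and to -0.18 without DMSO replicate 2. In each of these 43 members were negative, with 6 and 3 lower at an unadjusted p under 0.05. With both DOHH2 TK libraries numbered 1 left out, chosen after seeing the data, 16 were lower at that p. EdgeR called 0 members there, and 0% of all genes.

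In U2932 at 8 h, 21 members were negative and 26 positive, with a median of 0.02, and 49.6% of all genes were negative. The lean turned with the library left out: 36 were negative without TK replicate 1 (median -0.05), 25 negative without DMSO replicate 2 (-0.01), and 32 positive without TK replicate 2 (0.09). EdgeR and DESeq2 called 0 members, 0% of all genes were called, and 0 members reached an unadjusted p of 0.05, against 1.67% of all genes. UHRF1 read 157, 152 and 155 CPM with DMSO and 169.6 and 154 CPM with TK, and the groups overlapped. MCM4 had the smallest p, at -0.19 (SE 0.13), followed by ORC6 at 0.18 (SE 0.13) and POLD3 at -0.22 (SE 0.17), each with an edgeR adjusted p of 1. Both TK libraries lay below all DMSO libraries for ORC5, CDC6 and POLD3 and above them for POLE, against 7.24% and 6.73% of all genes.

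The contrast of 18 h with 8 h in DMSO was another in which the members leaned one way. In DOHH2 with DMSO, 44 of 47 members were higher at 18 h than at 8 h, with a median log2 difference of 0.29 against 0 over all genes, of which 48.8% were negative. EdgeR's test called 0 members, beside 0.631% of all genes, and DESeq2 called 1, POLA1 (adjusted p = 0.0421), beside 1.72% of all genes. At an unadjusted p under 0.05, 14 members were higher, with 5.21% of all genes. Both 18 h libraries lay above all 8 h libraries for 25 members (18.7% of all genes) and below them for RPA2 alone (15.8%). This contrast shares the DMSO libraries of 18 h with the contrast of TK and DMSO at 18 h, so a high level in those libraries enters both with opposite sign. It also compares replicates 1 and 3 at 18 h with 1, 2 and 3 at 8 h, and replicate 2 at 8 h was the lowest of its group for 45 members. With replicates 1 and 3 only, 39 members were higher, the median was 0.18 and 4 were higher at an unadjusted p under 0.05. Leaving out 1 library at a time, that last count was 4 to 8, or 25 when DMSO 8 h replicate 1 was dropped. Without DMSO 8 h replicate 1, which was the highest of its group for 40 members, 2 members were called, POLA1 and PRIM1, beside 0.839% of all genes.

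POLA1, the catalytic subunit of the polymerase that starts each strand, read 63.9, 44.9 and 50.4 CPM at 8 h and 82.1 and 79.9 CPM at 18 h in DOHH2 with DMSO, a log2 difference of 0.61 (SE 0.16, edgeR adjusted p = 0.113). GINS4 read 29.7, 22.1 and 23.3 CPM at 8 h and 39.0 and 39.5 CPM at 18 h, a log2 difference of 0.65 (SE 0.19, adjusted p = 0.156 by edgeR). MCM4 read 456, 377 and 420.4 CPM at 8 h and 559.8 and 557 CPM at 18 h, a log2 difference of 0.42 (SE 0.13, edgeR adjusted p = 0.197). In all 3 genes the 18 h libraries were above every 8 h library. CDC45 went from 80.8, 47.8 and 66.0 CPM to 102 and 107 CPM, the largest fitted difference, at 0.69.

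In U2932 with DMSO there was 1 library at 18 h, and the difference between times was not tested. That library lay above all 3 libraries of 8 h for 39 members and below them for 3, against 33% and 30.9% of all genes. The median log2 ratio to the mean of 8 h was 0.30, from -0.34 for ORC4 to 1.19 for TK1. TK1 read 73.7, 51.4 and 62.7 CPM at 8 h and 143 CPM at 18 h, outside the range of the 8 h libraries by a wide margin.

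With TK the members were more evenly split between the times. In DOHH2, 30 were higher at 18 h and 17 lower, with a median of 0.09, where 46.9% of all genes were lower. Of the members, 5 had every 18 h library above every 8 h library and 1 had them below, against 8.54% and 7.84% of all genes. EdgeR's test called 0 members, beside 1.57% of all genes, and DESeq2 called 0, beside 5.24%. At an unadjusted p under 0.05, 4 members were higher and 1 lower, against 8.58% and 9.46% of all genes. Without TK 8 h replicate 3, 26 were higher, the median was 0.06 and RFC1 was called, beside 7.73% of all genes. The direction turned without TK 8 h replicate 2 (22 higher, 25 lower, median -0.04), while without TK 8 h replicate 1 there were 38 higher, 13 of them at an unadjusted p under 0.05 (median 0.21). Without TK 18 h replicate 1, 27 were higher and the median was 0.05. RPA2 had the smallest p: it read 128, 102 and 99.1 CPM at 8 h and 78.1, 92.3 and 97.6 CPM at 18 h, every 18 h library below every 8 h library, a log2 difference of -0.30 (SE 0.12, edgeR adjusted p = 0.188). GINS4 stood at 0.43 (SE 0.17, edgeR adjusted p = 0.197) and POLA1 at 0.36 (SE 0.15, edgeR adjusted p = 0.203).

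In U2932 with TK, 29 members were higher at 18 h and 18 lower, with a median of 0.13 and 50.4% of all genes lower. EdgeR's test and DESeq2 called 0 members, beside 0.218% of all genes by edgeR and 5.22% by DESeq2. At an unadjusted p under 0.05, 4 were higher and 2 lower, against 9.23% and 9.44% of all genes. Every 18 h library lay above both 8 h libraries for 12 members and below them for 8, against 22.5% and 21.7% of all genes. The median was 0.05 when TK replicate 2 of 8 h was dropped and to 0.08 when that of 18 h was. TK1 read 98.8 and 54.3 CPM at 8 h and 126, 139.6 and 131 CPM at 18 h, a log2 difference of 0.79 (SE 0.28, edgeR adjusted p = 0.147). Its 18 h libraries were all higher, but the 8 h libraries lay far from each other, and leaving out 1 library at a time gave 0.42 to 1.28. UHRF1 went the other way, from 169.6 and 154 CPM to 111, 115 and 130.2 CPM, with no overlap, a log2 difference of -0.45 (SE 0.16, edgeR adjusted p = 0.14). RPA3, the smallest RPA subunit, read 44.6 and 39.2 CPM at 8 h and 61.0, 64.9 and 59.7 CPM at 18 h, with no overlap, a log2 difference of 0.56 (SE 0.24, edgeR adjusted p = 0.213). Fitted on U2932 libraries alone, TK1, UHRF1 and RPA3 were called, beside 9.66% of all genes.

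**Figure D3:**
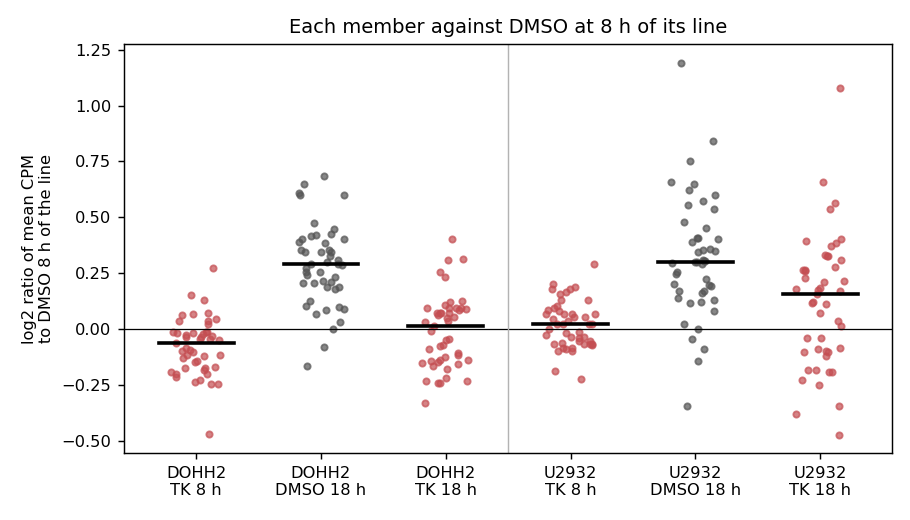
Log2 ratio of each member's mean CPM to its mean in DMSO at 8 h of the same line (y axis), by group (x axis); each point is 1 of 47 members and the black line is their median. In both lines the DMSO group of 18 h has the highest median (0.29 and 0.30), and the TK group of 18 h lies between it and 0 (0.01 and 0.16).

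The summed level of the 47 members was highest with DMSO at 18 h in both lines. In DOHH2 it was 7998, 6073 and 6981 CPM with DMSO at 8 h, 8009, 5834 and 6078 CPM with TK at 8 h, 8794 and 8494 CPM with DMSO at 18 h, and 7770, 6499 and 6727 CPM with TK at 18 h. The means were 7017 ± 963, 6640 ± 1192, 8644 ± 212 and 6998 ± 678 CPM (SD, n = 3, 3, 2 and 3). In U2932 it was 7928, 7950 and 8147 CPM with DMSO at 8 h, 8265 and 7719 CPM with TK at 8 h, 9802 CPM with DMSO at 18 h, and 7680, 8849 and 8312 CPM with TK at 18 h. In each line every DMSO library of 18 h lay above every other library of that line, TK libraries of 18 h overlapped the DMSO libraries of 8 h, and replicates within a DOHH2 group of 3 differed widely.

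**Figure D4:**
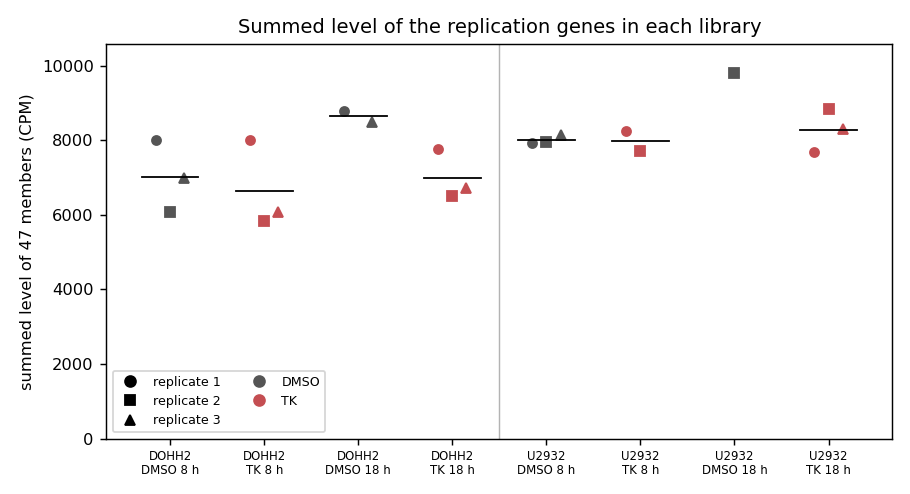
Summed level of the 47 members in each library in CPM (y axis, from 0), by group of line, treatment and time (x axis); symbols give the replicate number, colours the treatment, and short lines the mean of groups with more than 1 library. The DMSO libraries of 18 h are the highest of each line, at 8794 and 8494 CPM in DOHH2 and 9802 CPM in U2932.

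Whether the effect of TK differed between the times or the lines was tested directly. Between 18 h and 8 h in DOHH2, 46 of the 47 differences were negative (48.2% of all genes), with a median of -0.19. However, edgeR called 0 members, beside 0.0121% of all genes, and DESeq2 called 0, beside 0.0425%. Only POLD2 had an unadjusted edgeR p under 0.05 (log2 difference -0.44, SE 0.20), where 1.76% of all genes were lower. Without TK 18 h replicate 1, 42 were negative and 8 were lower at an unadjusted p under 0.05 (median -0.23), and dropping DMSO 8 h replicate 1 gave 47 and 8 (-0.33). The median was -0.30 when TK 8 h replicate 2 was dropped, -0.08 (36 negative) for TK 8 h replicate 1 and -0.10 (39 negative) for DMSO 8 h replicate 2. Between 18 h and 8 h in U2932, 37 were negative (48.9% of all genes). There 0 were called by edgeR and 0 by DESeq2, each beside 0.00607% of all genes. UHRF1 (-0.75, SE 0.25) and POLE (-0.52, SE 0.21) were lower at an unadjusted p under 0.05, with 2% of all genes, each with an edgeR adjusted p of 1. Between DOHH2 and U2932, edgeR called 0 members at 8 h (0% of all genes) and 0 at 18 h (0.0243%). DESeq2 called 0 at both times, beside 0% and 0.14% of all genes. Without DOHH2 TK replicate 1, 0 were called at 18 h, beside 0.0304% of all genes. UHRF1 at 8 h (-0.53, SE 0.21) and ORC6 at 18 h (-0.57, SE 0.21, edgeR adjusted p = 0.724) were the members lower at an unadjusted p under 0.05, where 0.91% and 2.66% of all genes were lower. ORC6 in U2932 read 83.9 CPM with DMSO and 85.3, 106 and 98.2 CPM with TK at 18 h, above the single control, where its TK libraries in DOHH2 lay below both controls. With DMSO of both times as control the ORC6 difference was called (-0.55, adjusted p = 0.0482), beside 4.45% of all genes.

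The members with E2F letters in the promoter were spread among the others in DOHH2. Their median log2 change with TK at 18 h was -0.28 over 13 members, and that of the 28 others with a promoter was -0.31. The medians in U2932 were -0.33 and -0.18, and those of 18 h over 8 h in DOHH2 with DMSO were 0.31 and 0.26. These are descriptions with no test.

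Between the lines in DMSO at 8 h, 27 of 47 members were called by edgeR, 7 higher and 20 lower in DOHH2, where 67.8% of all genes were called, 33% higher and 34.9% lower, so the share of the members (27 of 47) was not above that of all genes. DESeq2 called 26. The median log2 difference of the members was -0.15, and it was -0.03 over all genes. Without DOHH2 DMSO 8 h replicate 2, the lowest of its group for 45 members, 11 members were higher and 13 lower, beside 63.2% of all genes called, and the median was -0.05. Without replicate 1 of that group, 5 were higher and 20 lower, beside 65.7% (median -0.31). No overlap was seen for 9 members with DOHH2 above and 18 with DOHH2 below, against 35.9% and 37.9% of all genes. In TK at 18 h, a comparison that shares no library with the former, 5 members were higher and 21 lower in DOHH2, where 69.2% of all genes were called, 34.2% higher and 34.9% lower. DESeq2 called 27 members there, beside 69.4% of all genes. Without DOHH2 TK 18 h replicate 1, 4 were higher and 25 lower, beside 68.8% of all genes. No overlap was seen for 6 members with DOHH2 above and 20 with DOHH2 below, against 35.1% and 37.2% of all genes. In both comparisons 20 members were called in the same direction, 4 higher and 16 lower, which is 74.1% of the calls in DMSO at 8 h and 76.9% of those in TK at 18 h, and 0 in opposite directions. Of all genes, 26.4% were called higher in both and 27.8% lower in both.

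The clamp loader held the largest differences in both directions. RFC4 (chr3:186789880-186807058, GRCh38) read 64.5, 45.0 and 53.2 CPM in DOHH2 and 192, 186 and 188 CPM in U2932 with DMSO at 8 h, and was 3.48-fold lower in DOHH2 (log2 -1.80, SE 0.15, edgeR adjusted p = 9.49e-10). RFC3 (chr13:33818049-33966558) went the other way, at 144, 87.9 and 101 CPM in DOHH2 and 58.1, 47.7 and 39.1 CPM in U2932, and was 2.29-fold higher in DOHH2 (log2 1.20, SE 0.17, edgeR adjusted p = 3.96e-06). Both are subunits of the same complex, and neither pair of groups overlapped. Per length, RFC4 ranked 26 of the 47 members in DOHH2 and 10 in U2932, and RFC3 ranked 16 and 33. RFC2 was also higher in DOHH2 (log2 0.65), and RFC1 and RFC5 were lower. With TK at 18 h RFC4 was 4.50-fold lower and RFC3 2.35-fold higher in DOHH2.

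Among the licensing genes, GMNN and CDT1 differed in opposite directions. GMNN read 62.6, 45.7 and 47.8 CPM in DOHH2 and 132, 144 and 148 CPM in U2932, 2.72-fold lower in DOHH2 (log2 -1.45, SE 0.16, edgeR adjusted p = 6.64e-08). CDT1, which geminin inhibits, read 87.7, 82.4 and 112 CPM in DOHH2 and 52.5, 55.6 and 68.7 CPM in U2932, higher in DOHH2 (log2 0.67, SE 0.17, edgeR adjusted p = 0.00127). The groups of both genes were separate. The same directions were called with TK at 18 h, at -1.85 for GMNN and 0.44 for CDT1, though the CDT1 call was lost at 18 h without DOHH2 TK replicate 1 (0.26) and without U2932 TK replicate 1 (0.36) or 3 (0.42).

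Of the helicase genes, MCM7 was higher in DOHH2, at 981, 797 and 951 CPM against 567, 586 and 626 CPM (log2 0.62, SE 0.15, edgeR adjusted p = 0.00129), and MCM4 and MCM2 were lower (-0.64 and -0.45), although these proteins form 1 ring. GINS2 read 99.98, 55.4 and 63.1 CPM in DOHH2 and 167, 168 and 171 CPM in U2932, 2.32-fold lower (edgeR adjusted p = 1.89e-05). ORC2 read 54.8, 43.7 and 46.8 CPM in DOHH2 and 109.8, 122 and 107 CPM in U2932, 2.33-fold lower (edgeR adjusted p = 1.52e-07). ORC2 and GINS2 were separate between the lines in all libraries of these groups. ORC4, the least abundant member, was called higher in DOHH2 (0.42, edgeR adjusted p = 0.0482), a call lost in 5 of 6 fits that left out 1 library (0.38 to 0.47), and with RLE scaling, a filter at 50 counts, DESeq2 and the replicate block (ORC4 at 0.42, adjusted p = 0.0555). With TK at 18 h ORC4 was again called higher (0.47), but its groups overlapped and the call was lost in 5 of 6 fits that left out 1 library.

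PRIM2, the large subunit of primase, read 20.4, 14.2 and 13.5 CPM in DOHH2 and 38.0, 39.9 and 36.4 CPM in U2932, 2.38-fold lower in DOHH2 (edgeR adjusted p = 5.92e-08). POLA1, its partner in the same complex, read 63.9, 44.9 and 50.4 CPM and 121, 105 and 106 CPM, 2.09-fold lower (edgeR adjusted p = 2.66e-06). The other 2 genes of that complex, POLA2 and PRIM1, were not called. POLD3 was lower (-0.96), POLD2 higher (0.42), and POLE2 higher (0.52) but with overlapping groups and a call lost in 3 of 6 fits that left out 1 library (0.27 to 0.44). RPA1 read 183, 179 and 191 CPM in DOHH2 and 349, 364 and 359 CPM in U2932 (-0.95), and RPA2 and RPA3 were called with TK at 18 h but not with DMSO at 8 h. UHRF1 and DNMT1 were both lower in DOHH2 with DMSO at 8 h (-0.63 and -0.43), and RRM1 was the single nucleotide synthesis gene called (-0.45).

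**Figure D5:**
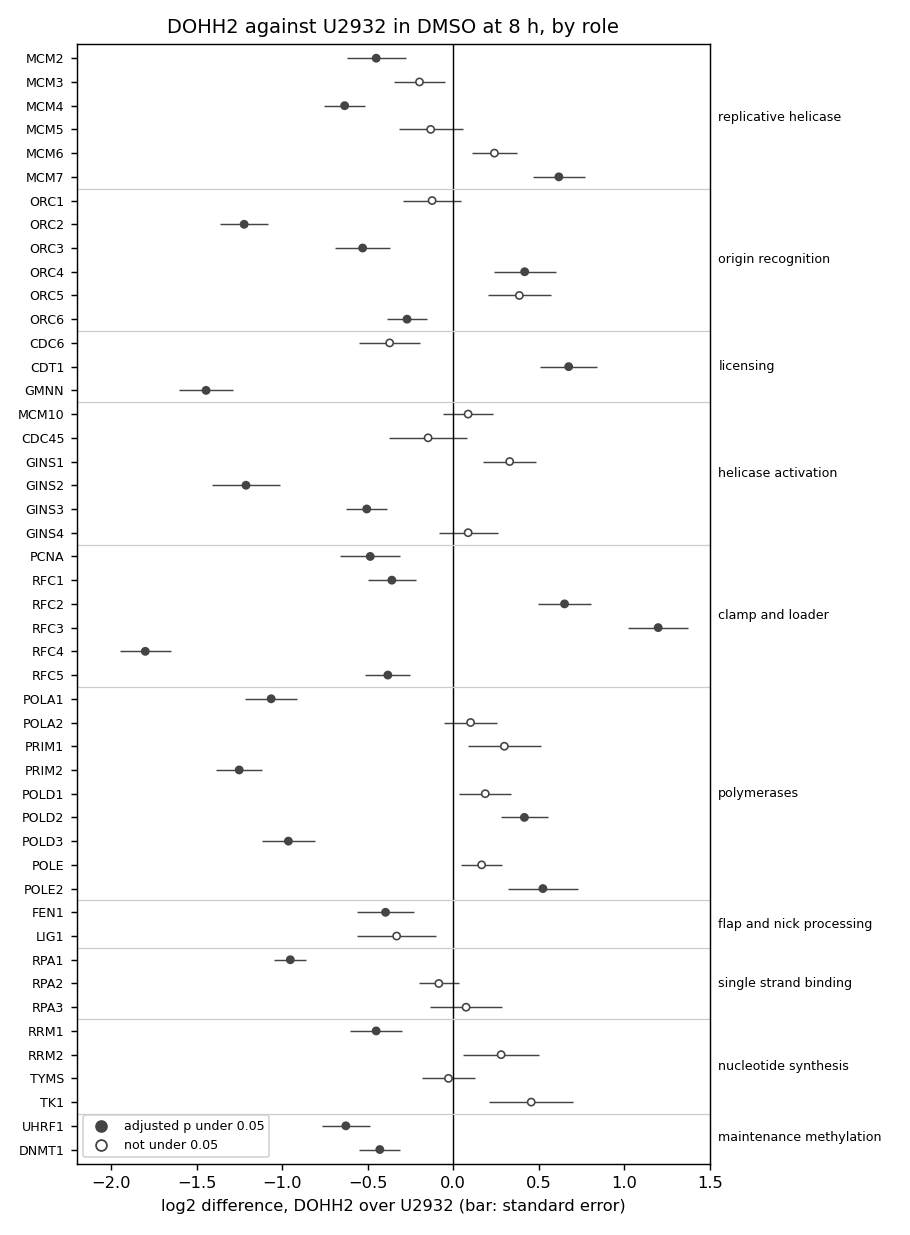
Log2 difference of DOHH2 over U2932 in DMSO at 8 h (x axis) with its standard error as bars for each of the 47 members (y axis, in role order); filled points have an adjusted p under 0.05 and open points do not. RFC4 at -1.80 and RFC3 at 1.20, both clamp loader subunits, mark the ends of the range.

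Further genes of the same processes were read from 3 lists: 42 measured genes of fork and chromatin assembly, 36 of nucleotide metabolism and 19 of the E2F and pocket protein families. For TK against DMSO, 0 genes of these lists were called by edgeR in either line at either time, beside 0 to 0.0728% of all genes. In DOHH2 at 18 h, 37 of 42, 31 of 36 and 15 of 19 were negative, with medians of -0.22, -0.14 and -0.09. Of these, 5, 6 and 3 were lower at an unadjusted p under 0.05. Of all genes, 45.9% were negative, and 4.07% were lower and 4.5% higher at that p. ASF1B, a histone chaperone, had the smallest p of the first list, at -0.47 (SE 0.15), and RBL1, a pocket protein, that of the last, at -0.49 (SE 0.17). RRM2B, the ribonucleotide reductase subunit that p53 induces, was the single gene of the nucleotide list higher at an unadjusted p under 0.05, at 0.72 (SE 0.20, edgeR adjusted p = 0.264), from a mean of 19.9 CPM with DMSO to 32.6 CPM with TK. In U2932 at 18 h, 31, 22 and 13 were negative, with medians of -0.20, -0.04 and -0.11, where 50.2% of all genes were negative. The smallest p belonged there to DTL (-0.76, SE 0.22), which marks CDT1 for destruction, SAMHD1 (-0.61, SE 0.14), which breaks down deoxynucleotides, and E2F7 (-0.94, SE 0.26), a repressor of the family.

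Between 8 and 18 h, 1 gene of these lists was called: POLD4, a small subunit of polymerase delta, rose with TK in U2932 from a mean of 44.1 to 80.7 CPM (log2 0.87, SE 0.17, edgeR adjusted p = 0.0349). Of all genes, 0.218% were called in that contrast. In DOHH2 with DMSO 0 genes of the lists were called, beside 0.631% of all genes. There 37 of 42, 25 of 36 and 15 of 19 were higher at 18 h, where 48.8% of all genes were lower. Of these, 7, 3 and 7 were higher at an unadjusted p under 0.05, with 5.21% of all genes. In DOHH2 with TK 0 were called, beside 1.57% of all genes. Between the lines in DMSO at 8 h, 12 fork and assembly genes were called higher and 13 lower in DOHH2, 13 and 12 nucleotide genes, and 6 and 3 E2F and pocket protein genes, against 33% higher and 34.9% lower of all genes. FAM111B (-2.49), MCMBP, an MCM binding protein (1.16), DCTD, deoxycytidylate deaminase (2.73), RRM2B (-2.69), CTPS2, a CTP synthase (-1.85), SLC29A1, a nucleoside transporter (1.66), E2F4 (1.26), RB1 (0.97), E2F1 (0.85) and TFDP1, the E2F partner (-0.95), were among the largest differences. With TK at 18 h the counts were 10 and 11, 10 and 19, and 9 and 4, against 34.2% and 34.9% of all genes.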

How the data were processed

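The authors measured polyadenylated RNA, per the labels' protocols, and deposited whole-number counts per gene for 58288 genes in each library with 5 summary counts of unassigned reads. STAR, HTSeq, edgeR and GRCh38.p10 are named, without tool versions, in the submitters' processing notes. Neither the strand setting nor the annotation release of the counting is given in the sources used here. The summary counts, 32.7 to 62.7% of all counts, were left out of library sizes and tests.

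EdgeR 4.0.16 in R 4.3.3 fitted the counts of the 20 libraries in 1 model (TMM scaling, robust quasi-likelihood F test, 1 coefficient for each of 8 groups). Genes reaching 10 counts in the median library (0.288 CPM) in at least 3 libraries were kept, 16478 of 34160 with any count. P-values were adjusted by Benjamini-Hochberg over all genes kept, with a threshold of 0.05, and never over the members alone. DESeq2 1.42.0 served as an alternative, and the fit was tested on simulated data. Levels are CPM, counts per 1000000 counts in genes, scaled by TMM. Coordinates and exon lengths come from GENCODE release 29 (GRCh38), where 43 of 47 members had the same versioned identifier.

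The members and the further lists were chosen with earlier results of these data known. The text gives full statistics for up to 6 members higher and 6 lower past the threshold with the largest changes, or, where none passed, the 3 members with the smallest p. From each further list it gives up to 4 called genes, or the one with the smallest p. Other members are described by role.

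The labels tie no replicate number to a shared culture or day. Over 10457 genes, same-numbered libraries deviated together in all pairs between the lines in DMSO at 8 h (correlations of 0.283, 0.147 and 0.313) and between the times in DOHH2 with DMSO (0.367 and 0.278). In DOHH2, TK and DMSO at 8 h gave 0.312, 0.571 and -0.0092, and the times with TK 0.326, -0.144 and 0.376. Other measured pairs ran from -0.159 to 0.271. In DOHH2 at 8 h, replicate 1 was highest for 40 members with DMSO and 39 with TK, and replicate 2 lowest for 45 and 32. A replicate block called 27 members between the lines in DMSO at 8 h, beside 68% of all genes, with ORC4 no longer among them. It called 0 in those contrasts within DOHH2, beside 0 to 1.57% of all genes. Replicates differed by 11.6 to 145 times sampling noise (chi-square per degree of freedom over 17 pairs), so none was a copy. The labels name no batch. Alternatives were other scaling, filters, the replicate block, 1 line only, DMSO of both times as control, DESeq2 and leaving out each library, and, chosen after seeing the data, replicates 1 and 3 of DOHH2 only and leaving out both DOHH2 TK libraries numbered 1.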

Additional observations from a re-analysis of the deposited data

Results flagged for a closer look

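In 4 members every TK library lay on 1 side of the DMSO libraries in one setting and on the other side in the other. For ORC6 at 18 h the log2 change was -0.37 in DOHH2 and 0.20 in U2932, and the difference of -0.57 had an edgeR p of 0.0145 and an adjusted p of 0.724. For GINS3, a subunit of the GINS complex, the changes at 18 h were -0.25 in DOHH2 and 0.04 in U2932, and the difference of -0.29 had an edgeR adjusted p of 0.886. For ORC5 in U2932 the change was -0.07 at 8 h and 0.26 at 18 h, and the difference of 0.33 had an edgeR adjusted p of 1. For POLE in U2932 the change was 0.13 at 8 h and -0.39 at 18 h, and the difference of -0.52 had an edgeR adjusted p of 1. All 4 rest on the single DMSO library of U2932 at 18 h, and none of the differences passed the test. Against that library every TK library lay above for 31.2% of all genes and below for 32.7%. The share of all genes that switch sides between settings was not computed, so the 4 are not read as a trait of the members. No group had more than 3 libraries, so single libraries were not tested for standing apart.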

How the results depend on the processing

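With no filter on low counts, 3 members were called for TK in DOHH2 at 18 h (CDC45, TK1 and UHRF1, beside 0.498% of all genes), 1 for TK in U2932 at 18 h (UHRF1, 0.299%), 4 between the times in DOHH2 with DMSO (1.3%) and 2 between the times in U2932 with TK (2.16%), where 0 were called with the filter. Between the times in U2932 with TK, the replicate block gave 1 (TK1 at 0.90, beside 0.777% of all genes) and a fit of that line only gave 3 (9.66%). The block moved no other count of called members past 1.5 times. For TK in U2932 at 18 h it raised the members lower at an unadjusted p under 0.05 from 7 to 11. For TK in DOHH2 at 18 h that number was 13 in the main fit, 9 with the block and 8 with the filter at 50 counts. It was 6 in a fit of DOHH2 libraries only and 26 with no filter. Members higher at that p between the times in DOHH2 with DMSO numbered 14 in the main fit and 13, 12, 6 and 20 in the same order of alternatives. The share of all genes at that p was not computed for the alternatives. DMSO of both times as control gave 1 for TK in U2932 at 18 h (9.7%), where the median turned to 0.088, and 1 for the difference between lines at 18 h (4.45%). DESeq2 gave 1 between the times in DOHH2 with DMSO (1.72%). Leaving out both DOHH2 TK libraries numbered 1 gave 6 for TK at 18 h (MCM2, MCM5, POLD1, POLE, UHRF1 and DNMT1, beside 0.455% of all genes). The cause of these differences was not tested. Leaving out 1 library at a time gave 0 to 2 called members for TK in DOHH2 at 18 h, 0 to 2 between the times in DOHH2 with DMSO, 0 to 1 with TK, 21 to 25 between the lines in DMSO at 8 h and 22 to 29 in TK at 18 h, and 0 for the other contrasts. In the fits of the lines that left out 1 library, 63.2 to 65.7% of all genes were called in DMSO at 8 h. In TK at 18 h it was 64.1 to 68.8%. Over all genes, TK in DOHH2 at 18 h gave 12 calls with edgeR, 85 with DESeq2, 170 with no filter and 44 with DMSO of both times. Of values for named members under an alternative, 643 kept their direction and side of the threshold, 16 passed it and 29 no longer did. In TK at 18 h the MCM6 difference between lines (0.31) lost its call under 9 alternatives.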
